A study of Homo sapiens with 12 samples.

Results

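The response of control endothelial cells to the Notch ligand DLL4 was examined in 4 of the 12 libraries of the series, chosen by their labels: the 2 libraries of the NT line on a DLL4 coating and the 2 libraries of the NT line on an IgG coating. The cells were TeloHAEC, human aortic endothelial cells immortalised with telomerase. The NT line is the control of the study and is given in the labels as wild type. The remaining 8 libraries came from 2 lines in which Cas9 was directed at TSPAN14 (TKO) or at NOTCH1 (NKO), on the same coatings. Plates were coated with DLL4 or with IgG at 2.5 mg/mL before the cells were plated, and RNA was taken after 24 hours. All lines were held at the same passage per the labels. The titles number the 2 libraries of a group as biological replicates and do not say what was kept separate between them. NT is 1 line, and p-values measure the spread between replicates, pooled over the 6 groups of all 12 libraries. They do not measure a spread between control lines.

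Notch receptors are cleaved when a ligand on a surface pulls on them. The freed intracellular domain enters the nucleus and joins the DNA-binding protein RBPJ and a Mastermind coactivator, which turns on HES and HEY genes among others. HES and HEY proteins repress further genes. In blood vessels DLL4 is the ligand of arteries and of the leading cells of sprouts. DLL4 signalling is known for arterial gene expression, for restraining sprouting and for slowing division.

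Levels are TPM, transcript abundances per gene length scaled to a common total in each library, listed first for DLL4 libraries 2 and 3 and then for IgG libraries 2 and 3, as the columns are numbered. Changes are differences of log2(TPM + 1), DLL4 minus IgG, with the standard error of a limma fit. A gene is said to have risen or fallen where its limma adjusted p was under 0.05 over the 13299 genes with at least 1 TPM in at least 2 of the 12 libraries. A gene said only to have had a change of a given size did not pass that test. Levels given alone do not say whether a gene passed or was tested. The 60 genes with the largest changes all passed. In NT cells 2130 genes changed, 16.0% of those tested. The DLL4 and IgG libraries did not overlap in 7790 of the tested genes (58.6%), among them all 2130 that changed. Where a lack of overlap is given for a gene below, it adds nothing to the call. Of all tested genes 7.68% rose (1021) and 8.34% fell (1109), and the median change over all tested genes was 0.015. A change of at least 2-fold was reached by 230 raised genes (1.73%) and 125 lowered ones (0.94%). The raised genes together held 113700 and 106700 TPM on DLL4, against 72000 and 71910 TPM on IgG. The lowered genes held 92500 and 89060 TPM on DLL4, against 123400 and 128100 TPM on IgG. Leaving out 1 NT library left fewer calls: 1213 without IgG library 2, 960 without IgG library 3, 1044 without DLL4 library 2 (39.1% of them raised) and 1054 without DLL4 library 3 (61.8% raised). When only the 4 NT libraries were fitted, 1085 were called. Ranges in parentheses after a count give the lowest and highest count when 1 of the 4 NT libraries was left out. All gene lists below were drawn up with earlier results of these data known. Their counts are a description, to be read beside the 7.68% raised and 8.34% lowered of all tested genes. Where the call of a named gene was lost without 1 NT library, the last sentence of the paragraph gives the libraries whose removal lost it and the range of its limma adjusted p over the other settings tried. Calls lost only in another setting are named near the end, under how the results depend on the processing. The 978 raised and 1068 lowered protein-coding genes make up most of both sets.

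All 12 endothelial markers, among them CDH5 and PECAM1, were at 1 TPM or more in each of the 4 libraries, summing to 2699 and 2469 TPM on DLL4 and 2606 and 2875 TPM on IgG. Of 10 leukocyte markers 9 stayed under 1 TPM in all 4 libraries, and CD68 was the exception. Of 10 fibroblast markers 8 stayed under 1 TPM, apart from FAP at up to 6.34 TPM and PDGFRA at up to 1.09 TPM. Among 12 smooth muscle and pericyte markers RGS5, ACTA2 and TAGLN were at 1 TPM or more throughout and MYH11 was at most 0.679 TPM, and the summed level was 271.4 and 236.1 TPM on DLL4 and 172.8 and 186.1 TPM on IgG. Of the epithelial markers KRT8, KRT18, KRT19 and TFF1 were present, and EPCAM, CDH1, KRT5 and KRT14 were at most 0.365 TPM. In RNA of whole cultures, a change in the number of cells of one kind and a change in RNA per cell cannot be told apart. The pseudogene entry KPNA2P2 took 0.321% and 3.04% of the DLL4 libraries, against 1.43% and 0.359% of the IgG libraries.

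**Figure D1:**
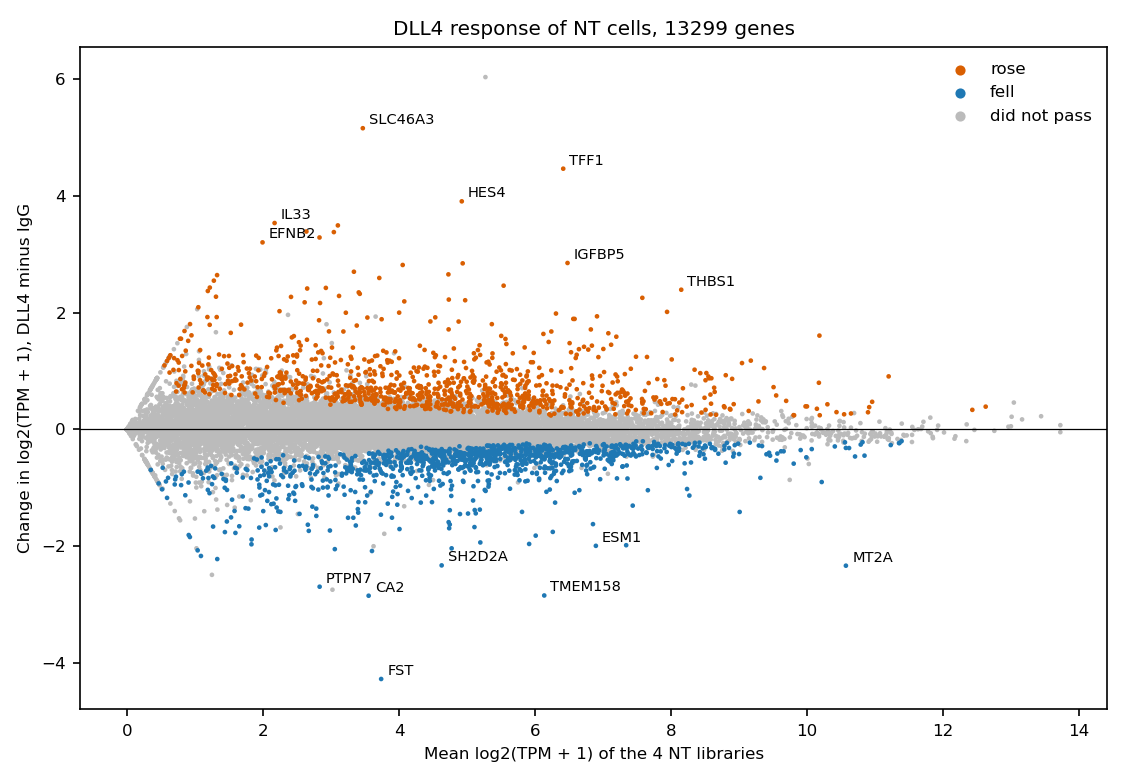
Change against level for the 13299 genes tested in NT cells. The x axis is the mean log2(TPM + 1) of the 4 libraries and the y axis is the change in log2(TPM + 1), DLL4 minus IgG; orange points rose (1021), blue points fell (1109), grey points did not pass the limma test, and labels mark 14 genes of the text. Among genes that passed, the change ran from 5.16 for SLC46A3 to -4.28 for FST.

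The Notch pathway itself changed at several steps. Among ligands, the gene DLL4 was at 45.6 and 40.7 TPM on DLL4, against 5.09 and 5.41 TPM on IgG. JAG1 was at 82.96 and 70.2 TPM on DLL4, against 42.9 and 44.6 TPM on IgG. Both rose, by 2.82 ± 0.13 and 0.79 ± 0.17, and the libraries of the coatings did not overlap. The other ligand genes tested were JAG2 (0.00 ± 0.23), DLL1 (0.41 ± 0.33) and DLL3 (-0.25 ± 0.19), which did not pass. Of the receptors NOTCH1 rose (0.55 ± 0.16), while NOTCH2 (0.09 ± 0.24) and NOTCH4 (0.41 ± 0.27) did not pass. Glycosyltransferases that extend sugars on Notch receptors changed in opposite directions. The fringe gene MFNG fell to 31.5 and 27.6 TPM on DLL4, against 113 and 123 TPM on IgG, and LFNG fell to 4.61 and 5.27 TPM on DLL4, against 14.6 and 17.4 TPM on IgG. RFNG, the third fringe, had a change of 0.04 ± 0.12. EOGT, which adds GlcNAc to EGF repeats, rose by 0.79 ± 0.17, and XXYLT1, a xylosyltransferase, by 0.28 ± 0.08. Of 13 genes of receptor cleavage 2 rose and none fell (0 up): TSPAN15, a tetraspanin partner of the protease ADAM10 (0.80 ± 0.21), and APH1B, a gamma-secretase subunit (0.46 ± 0.14). None of 18 nuclear partners and regulators passed, including RBPJ (0.10 ± 0.17) and the Notch inhibitor gene NRARP (0.39 ± 0.21). The calls of JAG1 (IgG 2, IgG 3 and DLL4 2, p 0.0035 to 0.081), NOTCH1 (IgG 2, IgG 3 and DLL4 2, p 0.018 to 0.26), EOGT (IgG 3 and DLL4 2, p 0.0052 to 0.088), XXYLT1 (any, p 0.032 to 0.26), TSPAN15 (any, p 0.0018 to 0.12) and APH1B (any, p 0.028 to 0.25) were lost without 1 of the libraries named.

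HES and HEY repressor genes were measured as the nearest readout of the pathway. HES4 was at 123 and 110.0 TPM on DLL4, against 6.14 and 7.56 TPM on IgG, and it rose by 3.91 ± 0.19. HEY2 was at 58.1 and 54.8 TPM on DLL4, against 11.1 and 11.5 TPM on IgG, and it rose by 2.23 ± 0.11. HEY1, at lower levels, was at 7.05 and 6.72 TPM on DLL4, against 1.91 and 1.94 TPM on IgG and also rose. HES1, already abundant on IgG, rose less, with 81.2 and 78.9 TPM on DLL4, against 40.7 and 42.6 TPM on IgG. BHLHE40, a related repressor that also takes part in the circadian clock, rose by 0.50 ± 0.09. HES7 was the one member that fell (-1.22 ± 0.31), at 2.94 and 2.34 TPM on DLL4, against 8.44 and 6.61 TPM on IgG. Of the 8 family members tested 5 rose and 1 fell (5 up, 0 down), against 7.68% and 8.34% of all genes. The call of HES7 (any, p 0.011 to 0.13) was lost without 1 of the libraries named.

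The promoters of 4 genes that carry the RBPJ core word are shown: HES1, HES4 and HEY2, which rose, and FST, which fell. Capitals mark TGGGAA or its complement TTCCCA and, in HES1 and HES4, both words of a facing pair. Sequences are RefSeq windows of GRCh38.p14 from 250 bases before the gene start to 50 bases after it, written 5′ to 3′ on the gene's strand: HES1 at chr3:194135898-194136197 (plus), HES4 at chr1:1000048-1000347 (minus), HEY2 at chr6:125749382-125749681 (plus) and FST at chr5:53480379-53480678 (plus).
HES1: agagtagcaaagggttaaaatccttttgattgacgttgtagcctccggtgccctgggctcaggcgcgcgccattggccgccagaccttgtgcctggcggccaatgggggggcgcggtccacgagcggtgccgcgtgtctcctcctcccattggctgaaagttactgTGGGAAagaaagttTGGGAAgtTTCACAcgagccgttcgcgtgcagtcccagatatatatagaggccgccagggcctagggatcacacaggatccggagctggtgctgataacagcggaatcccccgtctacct
HES4: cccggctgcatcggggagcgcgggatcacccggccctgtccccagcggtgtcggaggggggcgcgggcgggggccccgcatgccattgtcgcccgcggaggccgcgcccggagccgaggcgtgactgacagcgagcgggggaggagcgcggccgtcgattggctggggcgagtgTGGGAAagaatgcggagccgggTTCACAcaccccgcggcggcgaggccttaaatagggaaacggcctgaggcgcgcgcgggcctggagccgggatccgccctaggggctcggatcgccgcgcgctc
HEY2: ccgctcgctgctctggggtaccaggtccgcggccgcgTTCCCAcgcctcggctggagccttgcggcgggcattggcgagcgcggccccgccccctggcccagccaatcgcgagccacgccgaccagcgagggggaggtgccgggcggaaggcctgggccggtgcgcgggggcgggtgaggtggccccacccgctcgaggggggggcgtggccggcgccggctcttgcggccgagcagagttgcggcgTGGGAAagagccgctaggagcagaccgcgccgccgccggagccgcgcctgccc
FST: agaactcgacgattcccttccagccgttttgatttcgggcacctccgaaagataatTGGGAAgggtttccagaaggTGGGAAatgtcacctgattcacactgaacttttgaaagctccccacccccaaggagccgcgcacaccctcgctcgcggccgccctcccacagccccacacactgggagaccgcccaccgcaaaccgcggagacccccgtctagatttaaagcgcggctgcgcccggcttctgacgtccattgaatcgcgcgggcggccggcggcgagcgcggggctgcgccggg
In HES1 and HES4 a TGGGAA is followed, after 16 bases, by TTCACA (the complement of TGTGAA), starting 84 and 76 bases before the gene start. HES1 holds a further TGGGAA 70 bases before its start, and FST, which fell, holds 2 on the same strand. HEY2 has TTCCCA 213 bases and TGGGAA 3 bases before its start. A window was found for 9642 of the 13299 genes. TGGGAA on either strand stood in 18.9% of 752 raised genes with a window, in 21.3% of 831 lowered ones and in 21.8% of all 9642. Among genes raised at least 2-fold the share was 20.1% (32 of 159). A facing pair of the looser word TGNGAA with 15 to 19 bases between, chosen after the data were seen, stood in 10 of the 9642 windows (0.104%), and 3 of these 10 genes rose: HES1, HES4 and TEK. ALKBH2, a DNA repair enzyme gene, also held it and fell (-0.41 ± 0.11), and the other 6 did not pass. With the strict word TGGGAA in both places the pair stood in 3 windows, none of a raised or lowered gene. The calls of ALKBH2 (any, p 0.027 to 0.2) and TEK (IgG 2, IgG 3 and DLL4 2, p 0.012 to 0.2) were lost without 1 of the libraries named.

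The 30 largest increases reached well beyond the pathway. SLC46A3, a lysosomal transporter, was at 68.7 and 61.9 TPM on DLL4, against 0.845 and 0.846 TPM on IgG. TFF1, a secreted trefoil peptide known from the stomach lining, was at 395 and 405 TPM on DLL4, against 20.04 and 14.6 TPM on IgG. IL33, a nuclear cytokine of endothelial and epithelial cells, was at 14.5 and 14.1 TPM on DLL4, against 0.304 and 0.333 TPM on IgG. These 3 genes rose by 5.16 ± 0.12, 4.47 ± 0.30 and 3.54 ± 0.21, and in each the lower DLL4 library lay far above the higher IgG library. ACP5, the tartrate-resistant acid phosphatase, was at 33.8 and 22.8 TPM on DLL4, against 1.70 and 1.41 TPM on IgG. RND1, a small GTPase that loosens actin fibres, was at 16.2 and 22.7 TPM on DLL4, against 0.807 and 1.04 TPM on IgG. MASP1, a protease of the lectin pathway of complement, was at 26.1 and 25.02 TPM on DLL4, against 1.68 and 1.42 TPM on IgG. EFNB2, the arterial ephrin, was at 11.8 and 10.4 TPM on DLL4, against 0.274 and 0.344 TPM on IgG. All of these genes were under 2 TPM on IgG except TFF1. GJA4, an arterial connexin, had an entry of 0 on IgG in each library and was at 6.42 and 4.27 TPM on DLL4. It met the filter on levels only through these DLL4 libraries. ARHGEF17, an exchange factor for small GTPases, rose by 2.66 ± 0.12, and ENC1, an actin-binding kelch protein, by 2.46 ± 0.11. SERPINB9, an inhibitor of granzyme B, rose by 2.35 ± 0.12, and ATP6V0D2, a subunit of the vacuolar proton pump, by 2.18 ± 0.20. C1QTNF5, a secreted relative of complement C1q, rose by 2.19 ± 0.20. It overlaps MFRP, which had an entry of 0 in each of the 4 libraries, so no signal was assigned to MFRP. The remaining genes of this group are taken up below by function, apart from PLSCR4 (2.60 ± 0.18), CCDC102B (2.43 ± 0.22), LURAP1L (2.27 ± 0.19) and the entries CASP17P (3.29 ± 0.15) and AC009093.8 (2.70 ± 0.19).

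The 30 largest decreases included regulators of growth factors, metal-binding proteins and signalling genes best known from T cells. FST, which encodes the activin antagonist follistatin, was at 1.97 and 2.08 TPM on DLL4, against 58.5 and 56.9 TPM on IgG. CA2, a cytosolic carbonic anhydrase, was at 3.21 and 3.52 TPM on DLL4, against 33.1 and 28.1 TPM on IgG. TMEM158 was at 25.9 and 24.4 TPM on DLL4, against 166 and 212 TPM on IgG. PTPN7, a phosphatase of MAP kinases best known from blood cells, was at 1.55 and 2.06 TPM on DLL4, against 14.3 and 20.5 TPM on IgG. SH2D2A, an adaptor of T cells that also binds the VEGF receptor KDR, was at 9.30 and 10.7 TPM on DLL4, against 50.7 and 58.3 TPM on IgG. In all 5 genes both DLL4 libraries lay far below both IgG libraries. GRAMD1B, a sterol carrier of the endoplasmic reticulum (-2.04 ± 0.15), and LRRC38, an accessory subunit of potassium channels (-1.99 ± 0.41), fell. CDCP1, a substrate of SRC kinases (-1.94 ± 0.23), and TBC1D2, a regulator of RAB7 (-1.70 ± 0.11), fell. KRT19, a keratin, fell (-1.62 ± 0.35). MYEOV (-1.82 ± 0.13), MYCBPAP (-2.09 ± 0.24), TM4SF18 (-1.63 ± 0.23) and CATSPER1, a calcium channel subunit of sperm (-2.05 ± 0.17), also fell. CD274, the immune checkpoint ligand PD-L1, was at 5.43 and 4.26 TPM on DLL4, against 17.2 and 17.2 TPM on IgG. PTPN22, a phosphatase that damps T cell receptor signals (-1.63 ± 0.32), also fell. IFITM1, a membrane protein induced by interferon, fell (-1.72 ± 0.43). Entries of the RNA5SP family, pseudogenes of 5S ribosomal RNA, were 3 of the 30. They are near-identical copies, so the authors' counting could split reads between them. The calls of LRRC38 (IgG 3 and DLL4 2, p 0.00024 to 0.065), KRT19 (IgG 3, DLL4 2 and DLL4 3, p 6.3e-05 to 0.085), PTPN22 (IgG 2 and DLL4 3, p 0.0029 to 0.053) and IFITM1 (any, p 0.009 to 0.1) were lost without 1 of the libraries named.

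**Figure D2:**
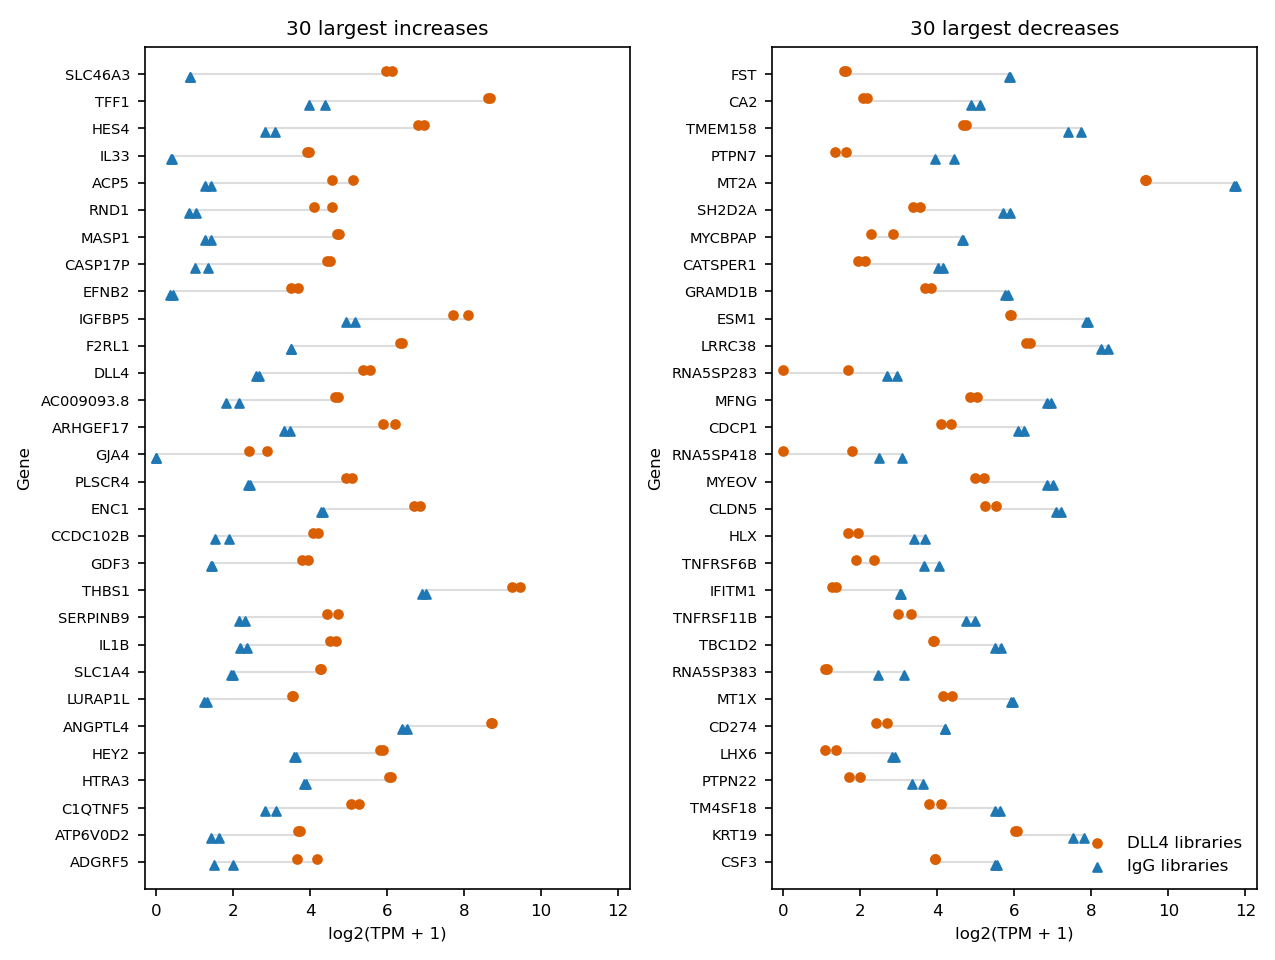
Level of the 30 genes with the largest increases (left panel) and the 30 with the largest decreases (right panel) in the 4 NT libraries. The x axis is log2(TPM + 1), orange circles are the 2 DLL4 libraries and blue triangles the 2 IgG libraries; no gene has overlapping groups, which is part of how these genes were chosen.

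Secreted growth factors changed in both directions. Of 12 TGF-beta superfamily ligands 5 rose and 1 fell (2 to 4 up, 0 down), with a median of 0.43. GDF3 was at 12.7 and 14.3 TPM on DLL4, against 1.74 and 1.69 TPM on IgG and rose by 2.42 ± 0.19. TGFB2, at most 1.60 TPM, also rose, as did BMP6 (0.43 ± 0.09) and the stress-induced GDF15 (0.43 ± 0.10), while BMP2 fell (-0.79 ± 0.22). Of 18 secreted inhibitors of TGF-beta, BMP and WNT signalling 4 rose and 2 fell (3 up, 1 to 2 down). FST fell, as given above, whereas FSTL3, a relative that binds the same ligands, rose to 92.9 and 94.4 TPM on DLL4, against 46.6 and 50.9 TPM on IgG. DKK3, of the Dickkopf family, was at 202 and 205 TPM on DLL4, against 57.3 and 65.7 TPM on IgG and rose by 1.71 ± 0.12. HHIP, which binds hedgehog ligands, rose by 0.75 ± 0.10, and LTBP4, which holds latent TGF-beta in the matrix, fell (-0.48 ± 0.13). Of 15 VEGF, PDGF, FGF and HGF type ligands 1 rose and 3 fell (1 up, 1 to 2 down). MDK, the heparin-binding factor midkine, rose by 0.60 ± 0.09. FGF16 (-0.99 ± 0.11) and PDGFB, which recruits pericytes (-0.43 ± 0.09), fell. VEGFA (0.04 ± 0.16), VEGFC (-0.41 ± 0.18) and PGF (-0.02 ± 0.08) did not pass. The EGF receptor ligand gene HBEGF rose (0.80 ± 0.18) and the neuregulin NRG1 fell (-0.94 ± 0.17). No WNT ligand or R-spondin of 5 tested passed. The calls of BMP6 (IgG 2 and DLL4 2, p 0.0064 to 0.072), GDF15 (IgG 2, DLL4 2 and DLL4 3, p 0.01 to 0.1), BMP2 (any, p 0.012 to 0.18), LTBP4 (IgG 3, DLL4 2 and DLL4 3, p 0.018 to 0.21), PDGFB (IgG 3, DLL4 2 and DLL4 3, p 0.0068 to 0.093) and HBEGF (IgG 2, DLL4 2 and DLL4 3, p 0.0017 to 0.075) were lost without 1 of the libraries named.

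IGF binding proteins, which hold insulin-like growth factors outside cells, rose in 4 of 9 genes tested and fell in none (3 up). The count is that of the list, and of the IGFBP genes named here only IGFBP5 and IGFBP3 rose. IGFBP5 was at 274 and 208 TPM on DLL4, against 34.8 and 29.7 TPM on IgG. IGFBP3 was at 13.8 and 11.4 TPM on DLL4, against 3.28 and 2.20 TPM on IgG. Both were several times higher in each DLL4 library than in either IgG library. HTRA1, a secreted protease that cleaves such proteins, rose by 0.75 ± 0.13, and its relative HTRA3 was at 65.7 and 67.5 TPM on DLL4, against 13.8 and 13.3 TPM on IgG. IGFBP4 (0.47 ± 0.16) and IGFBP2 (-0.05 ± 0.36) did not pass.

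Hormones and vasoactive peptides changed in both directions: of 15 tested 3 rose and 6 fell (3 up, 5 down), against 7.68% and 8.34% of all genes. PTHLH, parathyroid hormone-related protein, was at 148 and 165 TPM on DLL4, against 35.2 and 42.7 TPM on IgG. NPPC, the C-type natriuretic peptide of endothelium, was at 3.61 and 4.12 TPM on DLL4, against 0.171 and 0.396 TPM on IgG. Against these increases, the vasodilator peptide genes ADM and APLN fell. ADM was at 22.5 and 20.8 TPM on DLL4, against 57.02 and 58.3 TPM on IgG. APLN, the ligand of the apelin receptor and a sprout gene, was at 109.9 and 108 TPM on DLL4, against 261 and 282 TPM on IgG. ESM1, the proteoglycan endocan of leading cells in sprouts, was at 58.9 and 58.1 TPM on DLL4, against 242 and 231 TPM on IgG, and all 3 genes had both DLL4 libraries below both IgG libraries. STC1 (-0.87 ± 0.23), STC2 (-0.76 ± 0.11) and NMB, neuromedin B (-0.86 ± 0.14), also fell. EDN1, endothelin, had a change of -0.50 ± 0.16. Among angiopoietin-type factors ANGPTL4, an inhibitor of lipoprotein lipase, was at 412 and 419.8 TPM on DLL4, against 82.5 and 90.3 TPM on IgG, and ANGPT2, an antagonist of TEK, rose by 0.65 ± 0.10. PTH1R, the receptor of PTHLH, is given with the receptors. The calls of STC1 (any, p 0.0044 to 0.16), TEK (IgG 2, IgG 3 and DLL4 2, p 0.012 to 0.2) and PTH1R (IgG 2, p 0.0059 to 0.055) were lost without 1 of the libraries named.

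Of 17 interleukins and other cytokines 3 rose (17.6%) and 1 fell (5.88%) (3 up, 1 down), and of 10 chemokines 3 rose and none fell (3 up), against 7.68% raised and 8.34% lowered of all genes. IL1B was at 21.7 and 24.3 TPM on DLL4, against 3.49 and 4.11 TPM on IgG. IL6 was at 37.3 and 31.7 TPM on DLL4, against 14.3 and 13.7 TPM on IgG. CCL2, which attracts monocytes, was at 113 and 133 TPM on DLL4, against 43.9 and 41.5 TPM on IgG. CXCL2, which attracts neutrophils, was at 10.1 and 10.9 TPM on DLL4, against 3.27 and 4.09 TPM on IgG. CSF3, the granulocyte colony-stimulating factor, went the other way, with 14.3 and 14.2 TPM on DLL4, against 45.9 and 44.2 TPM on IgG. CXCL8 (-0.46 ± 0.24), CXCL1 (0.29 ± 0.11) and IL32 (0.15 ± 0.09) did not pass. ICAM1, an adhesion molecule for leukocytes, rose by 1.26 ± 0.31, and the transcription factor IRF1 by 1.08 ± 0.12. Over 27 NF-kB and inflammatory activation genes 6 rose and 1 fell (4 to 5 up, 1 down), and the median was -0.04. NFKBIA, the inhibitor induced by NF-kB, had a change of -0.04 ± 0.09. BCL2A1, an inhibitor of apoptosis on that list, fell (-1.78 ± 0.17). Of 41 interferon response genes 5 rose and 2 fell (2 to 4 up, 0 to 1 down): TRIM22 (1.18 ± 0.35), LGALS3BP (1.23 ± 0.19), UBE2L6 (0.84 ± 0.16), PARP14 (0.62 ± 0.15) and IRF1 against IFITM1 and IFITM2 (-0.38 ± 0.08). The calls of ICAM1 (any, p 0.0016 to 0.14), TRIM22 (any, p 0.0035 to 0.23), UBE2L6 (IgG 3, p 0.0027 to 0.058), PARP14 (IgG 3, DLL4 2 and DLL4 3, p 0.0097 to 0.14), IFITM2 (IgG 3 and DLL4 3, p 0.0043 to 0.057) and IFITM1 (any, p 0.009 to 0.1) were lost without 1 of the libraries named.

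Guidance cues that cells use to find or avoid each other changed in 11 of 24 ligand genes, 9 up and 2 down (5 to 8 up, 2 down). SEMA3G, an arterial semaphorin, was at 4.10 and 4.81 TPM on DLL4, against 0.138 and 0.111 TPM on IgG. EFNA1, an ephrin A ligand, was at 41.99 and 39.6 TPM on DLL4, against 11.01 and 10.2 TPM on IgG. SEMA4C (1.68 ± 0.25) and NTN4, a netrin of vascular basement membranes (1.46 ± 0.10), rose, while SEMA7A (-1.51 ± 0.17) and EFNB1 (-0.69 ± 0.09) fell. EFNB1 was the more abundant of the ephrin B pair on IgG, at 68.5 and 76.7 TPM on IgG, with EFNB2 at 0.274 and 0.344 TPM on IgG. Of 17 guidance receptors 4 rose and none fell (2 to 3 up). UNC5B, a netrin receptor, was at 6.80 and 5.72 TPM on DLL4, against 1.85 and 2.21 TPM on IgG. PLXND1, a semaphorin receptor, was at 288 and 262 TPM on DLL4, against 121 and 110.1 TPM on IgG. PLXNA1 (0.85 ± 0.17) and NRP2 (0.43 ± 0.13) were the others. EPHB4, the venous receptor of EFNB2, rose by 0.87 ± 0.11 and was the only one of 6 ephrin receptors to pass. The calls of PLXNA1 (IgG 2 and DLL4 2, p 0.0037 to 0.077) and NRP2 (any, p 0.03 to 0.29) were lost without 1 of the libraries named.

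Matrix genes were among the most abundant that rose. Of 31 matricellular and related matrix proteins 17 rose and 3 fell (12 to 16 up, 2 down), with a median of 0.61. These are 54.8% and 9.68% of the list, beside 7.68% raised and 8.34% lowered of all genes. Together the 31 held 9281 and 8512 TPM on DLL4 and 4776 and 4787 TPM on IgG. FN1, fibronectin, was at 2118 and 1937 TPM on DLL4, against 755 and 583 TPM on IgG. THBS1, an inhibitor of angiogenesis that also activates latent TGF-beta, was at 699.9 and 603 TPM on DLL4, against 119 and 127 TPM on IgG. SPARC, a collagen-binding glycoprotein, was at 3416 and 3035 TPM on DLL4, against 1687 and 1742 TPM on IgG. In all 3 genes the groups did not overlap. The nidogen NID2 (1.41 ± 0.16), the perlecan gene HSPG2 (0.93 ± 0.12), AGRN (0.99 ± 0.15), FBN2 (1.16 ± 0.16) and the calcification inhibitor MGP (1.12 ± 0.16) rose too. EMILIN2 (-1.46 ± 0.14) and EGFL7, an endothelial matrix factor (-0.83 ± 0.12), fell. Among collagens 7 of 17 tested rose and 1 fell (5 to 7 up, 1 down). The basement membrane chains COL4A1 and COL4A2 rose by 1.05 ± 0.11 and 0.72 ± 0.10, COL5A1 by 1.38 ± 0.11 and COL18A1, the source of endostatin, by 1.02 ± 0.09. COL17A1, a collagen of epithelial hemidesmosomes, fell (-1.07 ± 0.20). Of the collagens 41.2% rose and 5.88% fell, and of the laminins given next 40.0% rose. Among laminins 4 of 10 tested rose and none fell (2 to 4 up), led by LAMC1 (0.94 ± 0.13) and LAMB1 (0.71 ± 0.18). The call of LAMB1 (IgG 3, DLL4 2 and DLL4 3, p 0.013 to 0.2) was lost without 1 of the libraries named.

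Enzymes that cut or join the matrix rose more often than they fell, 9 against 3 of 38 tested (5 to 7 up, 0 to 3 down). ADAM19 was at 46.8 and 47.2 TPM on DLL4, against 12.4 and 14.99 TPM on IgG, and MMP15, a membrane-bound metalloprotease, rose by 1.15 ± 0.16. LOXL2, which cross-links collagen, rose by 0.58 ± 0.08, and the collagen-modifying enzyme PLOD2 by 1.15 ± 0.11. TGM2, a transglutaminase, was at 906 and 830.1 TPM on DLL4, against 362 and 403 TPM on IgG. ADAMTS1 (-0.66 ± 0.18) and MMP1, interstitial collagenase (-0.58 ± 0.16), fell. Of the enzyme list 23.7% rose and 7.89% fell, beside 7.68% raised and 8.34% lowered of all genes. Of the integrins given next 37.5% rose and 6.25% fell. Integrins, the receptors of matrix, rose in 6 of 16 genes and fell in 1 (4 to 6 up, 0 down). ITGAV (0.87 ± 0.15), ITGA8 (0.74 ± 0.14), ITGA3 (0.56 ± 0.08) and ITGA5 (0.39 ± 0.06), which pairs with ITGB1 to bind fibronectin, were among those that rose. The calls of ADAMTS1 (IgG 2, IgG 3 and DLL4 3, p 0.015 to 0.2), MMP1 (IgG 2 and DLL4 3, p 0.0029 to 0.22) and ITGA8 (DLL4 2, p 0.0031 to 0.052) were lost without 1 of the libraries named.

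Coagulation genes held 3 neighbouring thrombin and protease receptor genes that all rose. They were singled out after their values were seen. F2R, the thrombin receptor PAR1 (chromosome 5, 76716043 to 76735781, plus strand), was at 519 and 468 TPM on DLL4, against 123 and 119 TPM on IgG. F2RL1, the trypsin-activated receptor PAR2 (chromosome 5, 76818933 to 76835315, plus strand), was at 80.1 and 81.96 TPM on DLL4, against 10.4 and 10.4 TPM on IgG. F2RL2, encoding PAR3 (chromosome 5, 76615482 to 76623434, minus strand), was at 16.3 and 14.2 TPM on DLL4, against 4.92 and 5.37 TPM on IgG. Each was higher in both DLL4 libraries. Positions are GRCh38 from GENCODE 29. TFPI, the inhibitor of tissue factor, was at 187 and 186 TPM on DLL4, against 67.05 and 69.8 TPM on IgG. PLAT, tissue plasminogen activator, fell to 870.5 and 866 TPM on DLL4, against 1535 and 1717 TPM on IgG, while PLAU, the urokinase gene, rose by 0.52 ± 0.10 and its receptor PLAUR fell (-0.39 ± 0.10). THBD, thrombomodulin (-0.09 ± 0.13) and F3, tissue factor (0.10 ± 0.22), did not pass. Of the coagulation list 31.8% rose and 13.6% fell, beside 7.68% raised and 8.34% lowered of all genes. Over the list 7 of 22 tested rose and 3 fell (7 up, 1 to 2 down). The call of PLAUR (IgG 2, IgG 3 and DLL4 3, p 0.0088 to 0.13) was lost without 1 of the libraries named.

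Several growth factor receptors of endothelium rose. FLT1, a VEGF receptor that holds ligand with little kinase signalling, was at 82.6 and 73.6 TPM on DLL4, against 26.1 and 23.9 TPM on IgG. KDR, the main signalling VEGF receptor, was at 69.9 and 55.5 TPM on DLL4, against 33.8 and 30.9 TPM on IgG. PTPRB, the phosphatase that acts on TEK, rose by 1.08 ± 0.17, and TEK, the angiopoietin receptor, by 0.43 ± 0.12. In this group 5 of 8 tested rose and none fell (3 to 4 up). NRP1 had a change of -0.13 ± 0.16. ROR1, a receptor-like kinase of WNT5A signalling, was at 25.9 and 23.7 TPM on DLL4, against 6.37 and 5.56 TPM on IgG. DDR1, a collagen receptor, rose by 0.89 ± 0.23, and FGFR1, a fibroblast growth factor receptor, fell (-0.43 ± 0.10). TGF-beta receptors TGFBR2 (0.98 ± 0.12) and TGFBR1 (0.62 ± 0.13), the activin receptor ACVR2A (0.72 ± 0.22) and the BMP receptor ACVRL1 (0.47 ± 0.12) rose, 4 of 13 tested, and none fell (1 to 2 up, 0 to 1 down). ENG (-0.22 ± 0.07) and BMPR2 (0.52 ± 0.18) did not pass. The frizzled gene FZD4, which also binds norrin, rose by 0.84 ± 0.10. The calls of TEK (IgG 2, IgG 3 and DLL4 2, p 0.012 to 0.2), DDR1 (IgG 3 and DLL4 2, p 0.0098 to 0.17), FGFR1 (IgG 3, DLL4 2 and DLL4 3, p 0.0083 to 0.12), TGFBR1 (any, p 0.0049 to 0.072), ACVR2A (any, p 0.038 to 0.25) and ACVRL1 (IgG 2 and DLL4 2, p 0.012 to 0.15) were lost without 1 of the libraries named.

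G protein-coupled receptors changed in 22 of 55 genes, 15 up and 7 down (9 to 11 up, 5 to 7 down). ADORA2B, an adenosine receptor, was at 124 and 119.9 TPM on DLL4, against 40.01 and 37.01 TPM on IgG, while ADORA2A fell (-0.66 ± 0.13). The adhesion receptor gene ADGRG6 was at 86.1 and 74.2 TPM on DLL4, against 29.5 and 24.04 TPM on IgG, ADGRF5 rose by 2.17 ± 0.29 and GPRC5B by 2.03 ± 0.14. PTH1R, the receptor of PTHLH, was at 2.72 and 2.05 TPM on DLL4, against 0.395 and 0.735 TPM on IgG, so ligand and receptor both rose. CALCRL, the receptor of adrenomedullin when paired with RAMP2, rose by 0.58 ± 0.16. PTGER4, a prostaglandin E2 receptor, was at 14.5 and 12.6 TPM on DLL4, against 31.5 and 35.5 TPM on IgG. NTSR1, a neurotensin receptor, was at 20.2 and 17.1 TPM on DLL4, against 48.5 and 56.3 TPM on IgG. Both fell, as did GPRC5A (-1.14 ± 0.14). Of the list 27.3% rose and 12.7% fell, beside 7.68% raised and 8.34% lowered of all genes. Outside the list, HTR1D, a serotonin receptor singled out after its values were seen, was at 56.2 and 53.2 TPM on DLL4, against 14.8 and 14.1 TPM on IgG. S1PR1, the sphingosine phosphate receptor of endothelium, had a change of 0.19 ± 0.10. The calls of ADORA2A (IgG 3 and DLL4 2, p 0.0049 to 0.073), PTH1R (IgG 2, p 0.0059 to 0.055) and CALCRL (any, p 0.019 to 0.19) were lost without 1 of the libraries named.

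Cytokine, TNF and Toll-like receptors rose in 13 of 50 genes and fell in 5 (5 to 11 up, 3 to 4 down). TNFRSF21, a death receptor, rose by 1.06 ± 0.15, OSMR, the oncostatin M receptor, by 0.99 ± 0.17, TLR4, which senses lipopolysaccharide, by 0.92 ± 0.16, and IFNGR1 by 0.71 ± 0.13. Some decoy receptors fell. TNFRSF11B, osteoprotegerin, which traps RANKL and TRAIL, was at 8.96 and 6.92 TPM on DLL4, against 25.95 and 30.3 TPM on IgG. TNFRSF6B, which traps FAS ligand, was at 2.67 and 4.11 TPM on DLL4, against 11.6 and 15.5 TPM on IgG. In contrast, the decoy TRAIL receptor TNFRSF10D rose by 0.42 ± 0.10. The call of TNFRSF10D (IgG 2, IgG 3 and DLL4 2, p 0.0084 to 0.14) was lost without 1 of the libraries named.

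**Figure D3:**
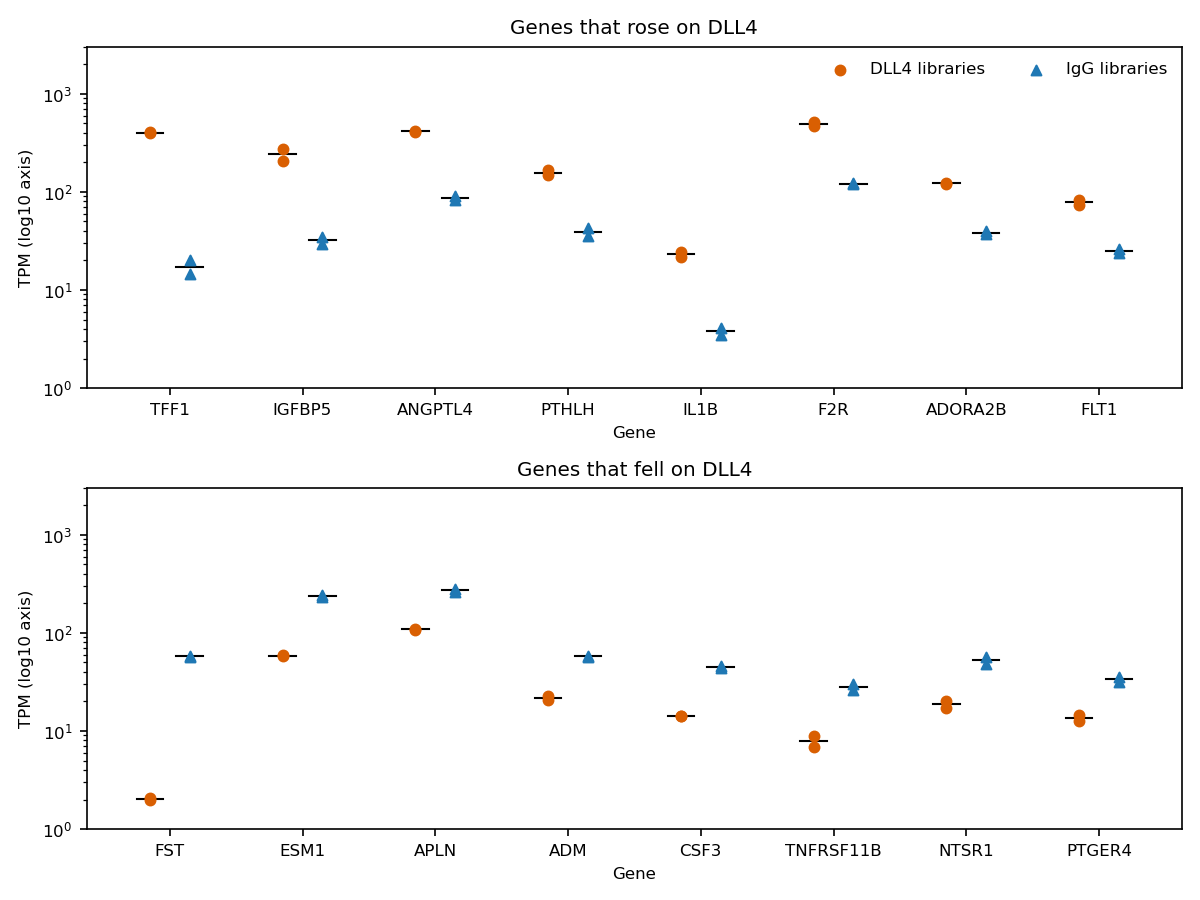
TPM of 16 genes for secreted factors and receptors named in the text, on a log10 axis, with the 2 DLL4 libraries (orange circles) left of the 2 IgG libraries (blue triangles) of the NT line. Each point is 1 library and bars are the mean of 2; the upper row holds genes that rose, such as TFF1 at 395 and 405 TPM on DLL4 against 20.0 and 14.6 TPM on IgG, and the lower row holds genes that fell.

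Junction genes changed in both directions. CLDN5, the main claudin of endothelium, was at 44.8 and 36.9 TPM on DLL4, against 134 and 146 TPM on IgG, while TJP1, which anchors tight junctions, rose by 0.87 ± 0.11. CDH5, the adherens junction cadherin, had a change of 0.16 ± 0.09. PCDH1 rose by 1.06 ± 0.13, and LYVE1, a hyaluronan receptor of lymphatic endothelium, by 0.77 ± 0.11. CD47, a signal against phagocytosis, fell (-0.54 ± 0.10). Over the list of cadherins, junction and leukocyte adhesion molecules 9 of 38 tested rose and 4 fell (5 to 6 up, 3 to 4 down). Of 6 connexins, channels between cells, 4 rose and none fell (1 to 3 up). GJA1 was at 204 and 189 TPM on DLL4, against 113 and 108 TPM on IgG, GJC1 rose by 0.60 ± 0.15, and GJA5, listed at 0 on IgG, was at 1.25 and 1.03 TPM on DLL4. GJA4, given above, met the filter of 1 TPM only through the DLL4 libraries of NT cells, where it is high. GJA5 was close to that limit. The connexin count thus depends in part on the filter. The call of GJC1 (any, p 0.009 to 0.13) was lost without 1 of the libraries named.

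Transcription factors of endothelial and mesenchymal fate rose in 21 of 90 genes and fell in 9 (9 to 17 up, 4 to 7 down). LMO2, a partner of GATA and TAL factors, was at 80.5 and 71.6 TPM on DLL4, against 21.3 and 20.7 TPM on IgG. SNAI2, a repressor linked to endothelial-to-mesenchymal transition, was at 21.4 and 21.6 TPM on DLL4, against 5.09 and 4.83 TPM on IgG. EPAS1, the hypoxia-inducible factor of endothelium, was at 184 and 159 TPM on DLL4, against 62.3 and 64.6 TPM on IgG. In these 3 genes each DLL4 library was well above either IgG library. MECOM, an arterial regulator, rose by 1.34 ± 0.19, NR2F1, a nuclear receptor and relative of the venous NR2F2, by 1.11 ± 0.10, ZEB2 by 0.94 ± 0.13 and SNAI1 by 0.84 ± 0.11. NR2F2 had a change of -0.12 ± 0.11. ERG (0.49 ± 0.13) and the arterial SOX17 (0.44 ± 0.13) rose by less. HLX (-1.74 ± 0.25), LHX6 (-1.64 ± 0.25) and ETS2 (-1.06 ± 0.13) fell. KLF2 (-0.18 ± 0.17) and KLF4 (-0.43 ± 0.19), factors induced by flow, did not pass. The calls of ERG (IgG 2, IgG 3 and DLL4 2, p 0.016 to 0.19) and SOX17 (IgG 2, DLL4 2 and DLL4 3, p 0.028 to 0.24) were lost without 1 of the libraries named.

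Of 49 factors of the immediate early and stress type 7 rose and 12 fell (4 to 6 up, 5 to 12 down). FOSL1, an AP-1 subunit, was at 64.98 and 64.4 TPM on DLL4, against 128 and 149.7 TPM on IgG. MAFF, a small MAF protein, was at 20.3 and 20.1 TPM on DLL4, against 54.2 and 58.95 TPM on IgG. EGR1 (-1.51 ± 0.25), BATF3 (-0.89 ± 0.13), NR4A1 (-0.88 ± 0.19), MYC (-0.61 ± 0.12) and ATF4 (-0.40 ± 0.07) fell. TSC22D3, the glucocorticoid-induced leucine zipper (0.94 ± 0.14), and MAFK (0.78 ± 0.12) rose. Of this list 14.3% rose and 24.5% fell, beside 7.68% raised and 8.34% lowered of all genes. Of 25 nuclear receptors 5 rose and 1 fell (4 to 5 up, 0 to 2 down): RARB, a retinoic acid receptor, was at 8.21 and 9.75 TPM on DLL4, against 3.19 and 3.49 TPM on IgG, PPARG, the receptor of fatty acid ligands, rose by 0.97 ± 0.15 and RORA by 0.97 ± 0.17. All 5 HOX genes that fell lie in the HOXB cluster on chromosome 17: HOXB6 (-0.88 ± 0.08), HOXB9 (-0.78 ± 0.13), HOXB5 (-0.51 ± 0.16), HOXB7 (-0.45 ± 0.10) and HOXB2 (-0.42 ± 0.11). No HOX gene of the 15 tested rose (2 to 3 down). HMGA1, a chromatin protein of growing cells outside these lists, was at 319.9 and 309 TPM on DLL4, against 746 and 946 TPM on IgG. Of 401 zinc finger genes named ZNF 11 rose and 11 fell (4 to 8 up, 3 to 8 down), 2.74% each. The calls of NR4A1 (IgG 3, DLL4 2 and DLL4 3, p 0.0065 to 0.1), MYC (IgG 3 and DLL4 3, p 0.0026 to 0.067), HOXB5 (any, p 0.037 to 0.26), HOXB7 (any, p 0.0076 to 0.071) and HOXB2 (IgG 2, IgG 3 and DLL4 3, p 0.021 to 0.2) were lost without 1 of the libraries named.

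Mediators and targets of TGF-beta and BMP signalling changed too. The transducer SMAD3 was at 66.6 and 59.9 TPM on DLL4, against 26.5 and 35.8 TPM on IgG, and the inhibitory SMAD6 (1.36 ± 0.24) and SMAD7 (0.96 ± 0.22) rose. ID genes, which BMP signals induce, divided: ID1 was at 127 and 117 TPM on DLL4, against 217 and 221 TPM on IgG, while ID3 rose by 0.62 ± 0.10 and ID2 had a change of 0.30 ± 0.33. Of 21 genes listed as TGF-beta targets 10 rose and 1 fell (8 to 10 up, 1 down), with a median of 0.40. The members were in part described above (ANGPTL4, FN1, ID1, ID3), and CDKN2B, an inhibitor of CDK4 and CDK6, was at 45.4 and 42.7 TPM on DLL4, against 10.03 and 11.8 TPM on IgG. PMEPA1 (0.83 ± 0.14), TPM1, a tropomyosin of stress fibres (0.96 ± 0.07), and ACTA2, smooth muscle actin (0.62 ± 0.14), rose as well. The summed level of smooth muscle and pericyte markers, which include ACTA2, was also higher on DLL4. Most of that sum was RGS5 (220.6 and 185.6 TPM on DLL4, against 135.7 and 143.9 TPM on IgG). The RGS5 call was lost in the fit of the 4 NT libraries alone and without IgG 2, IgG 3 or DLL4 2. Of the 12 markers 8 stayed under 1 TPM in all 4 libraries. The part of such cells in these changes was not tested. Of 28 YAP and TEAD targets 12 rose and 2 fell (8 to 10 up, 0 to 2 down). CCN2, connective tissue growth factor, was at 755 and 808 TPM on DLL4, against 336 and 374 TPM on IgG. ANKRD1, a nuclear ankyrin repeat protein, was at 244 and 263 TPM on DLL4, against 84.5 and 82.4 TPM on IgG. CCN1 (0.61 ± 0.09) and AMOTL2 (1.08 ± 0.11) rose. Of the TGF-beta targets 47.6% rose and 4.76% fell, beside 7.68% raised and 8.34% lowered of all genes. Of the YAP and TEAD list 42.9% rose and 7.14% fell. THBS1, IGFBP3 and ARHGEF17 stand on that list too. The calls of SMAD7 (IgG 2, DLL4 2 and DLL4 3, p 0.0087 to 0.089) and ACTA2 (IgG 2, DLL4 2 and DLL4 3, p 0.0085 to 0.085) were lost without 1 of the libraries named.

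Signalling regulators inside the cell changed in both directions. DUSP6, the phosphatase that ends ERK signals, was at 152 and 139 TPM on DLL4, against 57.1 and 57.6 TPM on IgG. SPRY2, another inhibitor of that pathway, was at 17.9 and 15.1 TPM on DLL4, against 33.7 and 32.4 TPM on IgG. Regulators of G protein signalling divided, with RGS4 at 248 and 229 TPM on DLL4, against 73.2 and 77.4 TPM on IgG. RGS3 was at 205 and 207 TPM on DLL4, against 78.8 and 78.3 TPM on IgG. RGS2 was at 20.2 and 20.6 TPM on DLL4, against 52.9 and 56.8 TPM on IgG. RGS4 and RGS3 were higher, and RGS2 lower, in both DLL4 libraries. SOCS3 (-0.84 ± 0.11) and SOCS1 (-0.58 ± 0.15), which shut off cytokine receptors, fell. Genes of small GTPases that shape the actin skeleton included, besides RND1 and ARHGEF17, RHOJ, an endothelial CDC42 relative (0.85 ± 0.15), and RHOQ (0.81 ± 0.15), which rose, and ARHGAP6 (-1.16 ± 0.18), ARHGAP23 (-1.02 ± 0.14) and RAC2 (-0.50 ± 0.07), which fell. Among 76 activating and exchange factors of these GTPases 6 rose and 9 fell (4 to 5 up, 3 to 6 down), close to the shares of all genes. The RAP1 exchange factors RAPGEF5 (1.31 ± 0.22) and RAPGEF2 (1.06 ± 0.20) rose, and the cAMP-sensitive RAPGEF3 fell (-1.12 ± 0.13). PDE2A (-1.26 ± 0.11) and PDE4B (-1.02 ± 0.13), phosphodiesterases of cyclic nucleotides, fell, and PDE3A rose by 1.49 ± 0.17. The calls of SPRY2 (DLL4 3, p 0.00097 to 0.051) and SOCS1 (IgG 2, IgG 3 and DLL4 3, p 0.0069 to 0.16) were lost without 1 of the libraries named.

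Genes of DNA replication fell together: 32 of 49 fell and none rose (17 to 20 down), with a median of -0.56. MCM2 of the replicative helicase was at 18.8 and 17.3 TPM on DLL4, against 35.3 and 40.4 TPM on IgG, and the licensing factor CDT1 at 14.6 and 15.6 TPM on DLL4, against 25.2 and 32.7 TPM on IgG. CDC6 (-0.77 ± 0.10), POLD1 (-0.75 ± 0.09) and FEN1 (-0.74 ± 0.08) also fell. Of the replication list 65.3% fell, and of the mitosis list given next 32.8%, beside 8.34% of all genes. Of 64 mitosis genes 21 fell and none rose (6 to 12 down), with a median of -0.26. CDC20 (-0.66 ± 0.08), SKA1 (-1.13 ± 0.24), CDCA5 (-0.75 ± 0.08) and AURKB (-0.55 ± 0.09) were among them, while MKI67 (-0.24 ± 0.15) and TOP2A (-0.08 ± 0.12) did not pass. CDK inhibitors rose beside CDKN2B: CDKN1A, p21, was at 308 and 289.8 TPM on DLL4, against 161 and 166 TPM on IgG, and CDKN1B (0.51 ± 0.11) and CDKN2D (0.66 ± 0.12) rose. Of the cyclins D, CCND1 was at 98.6 and 84.6 TPM on DLL4, against 159 and 173 TPM on IgG. CCND3 was at 189.6 and 177 TPM on DLL4, against 110.4 and 126 TPM on IgG, so that one fell and the other rose. CDK4 fell (-0.47 ± 0.08). Of the p53 targets given next 32.3% rose and 3.23% fell, beside 7.68% raised and 8.34% lowered of all genes. Of 31 p53 targets 10 rose and 1 fell (4 to 7 up, 0 to 1 down), among them TP53INP1 (1.25 ± 0.21) and PLK2 (1.24 ± 0.11). The calls of SKA1 (IgG 2, IgG 3 and DLL4 3, p 0.0021 to 0.096) and CDKN1B (IgG 3 and DLL4 2, p 0.0037 to 0.093) were lost without 1 of the libraries named.

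**Figure D4:**
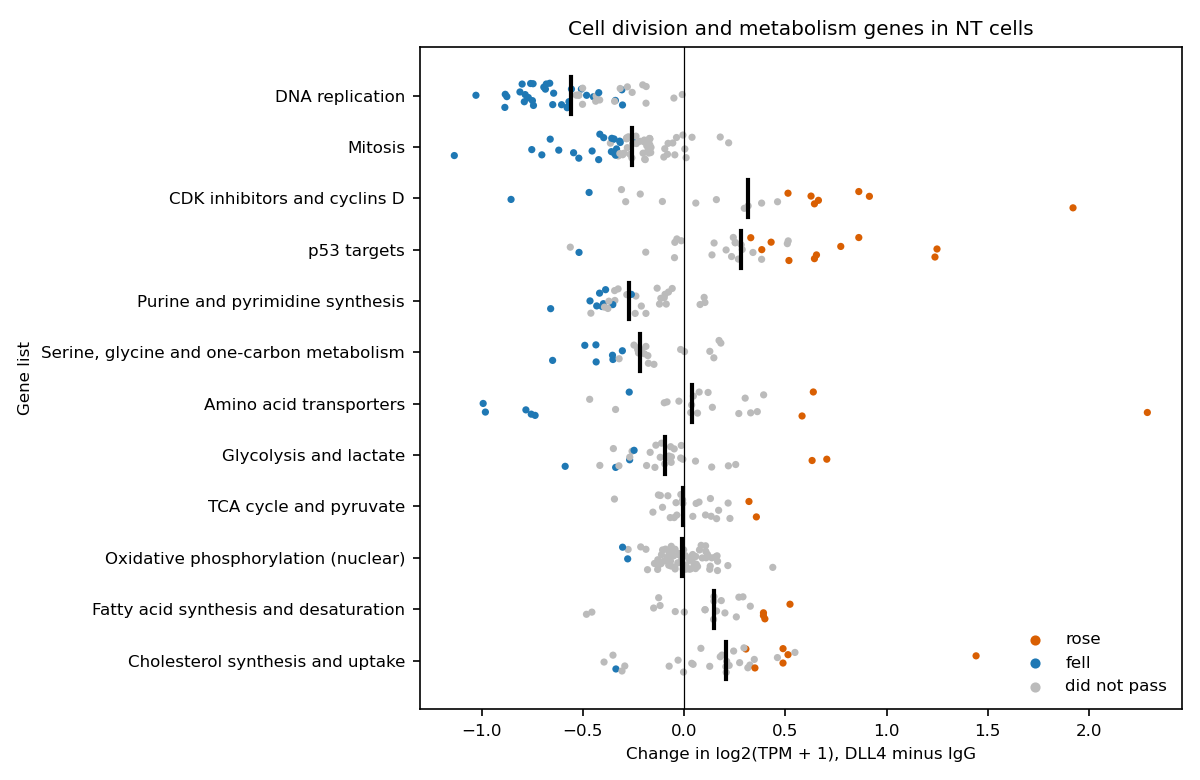
Change in log2(TPM + 1), DLL4 minus IgG in NT cells, of every tested gene on 12 lists of cell division and metabolism, with the list median as a black bar. Orange points rose, blue points fell and grey points did not pass the test; the DNA replication list (median -0.56) and the mitosis list (median -0.26) have no orange point, and the oxidative phosphorylation list is centred near 0.

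Metabolic genes that supply nucleotides fell in part. Of 32 purine and pyrimidine synthesis genes 9 fell and none rose (2 to 6 down), with a median of -0.27. ATIC, the enzyme of the last steps of purine synthesis, was at 52.96 and 52.1 TPM on DLL4, against 91.1 and 76.5 TPM on IgG, and PRPS1 (-0.46 ± 0.10) and PAICS (-0.40 ± 0.10) fell. Of 24 serine, glycine and one-carbon genes 7 fell and none rose (0 to 3 down), among them SLC19A1, the folate carrier (-0.65 ± 0.13), MTHFD2 (-0.44 ± 0.11) and SHMT2 (-0.35 ± 0.10). Polyamine metabolism changed at both ends. ODC1, which makes putrescine, was at 148 and 132 TPM on DLL4, against 298 and 280.0 TPM on IgG. SAT1, which acetylates polyamines for export and breakdown, was at 191 and 172 TPM on DLL4, against 49.6 and 46.4 TPM on IgG. The groups of both genes were far apart, one lower and the other higher on DLL4. ADA, which turns adenosine into inosine, was at 239.5 and 229 TPM on DLL4, against 60.4 and 60.5 TPM on IgG, while PNP (-0.40 ± 0.08), ADK (-0.47 ± 0.11) and NT5E, which makes adenosine outside cells (-0.37 ± 0.11), fell. Amino acid transporters fell in 6 of 26 genes and rose in 3 (1 to 2 up, 3 to 4 down). SLC1A4, a carrier of serine and alanine, was at 18.3 and 18.02 TPM on DLL4, against 2.98 and 2.87 TPM on IgG. SLC7A5, which carries leucine, was at 28.01 and 26.6 TPM on DLL4, against 50.5 and 59.7 TPM on IgG. SLC6A6, the taurine carrier, fell (-0.99 ± 0.16), and SLC7A11, the cystine carrier, rose by 0.64 ± 0.16. The calls of ATIC (IgG 2 and DLL4 3, p 0.0048 to 0.076), PRPS1 (IgG 3 and DLL4 3, p 0.0018 to 0.076), PAICS (any, p 0.0042 to 0.12), SLC19A1 (IgG 3 and DLL4 3, p 0.0034 to 0.071), MTHFD2 (IgG 2, IgG 3 and DLL4 3, p 0.0068 to 0.16), SHMT2 (any, p 0.023 to 0.21), PNP (IgG 3, DLL4 2 and DLL4 3, p 0.0047 to 0.056), ADK (IgG 2, DLL4 2 and DLL4 3, p 0.0066 to 0.11), NT5E (IgG 2, IgG 3 and DLL4 3, p 0.01 to 0.29) and SLC7A11 (IgG 3 and DLL4 2, p 0.0096 to 0.17) were lost without 1 of the libraries named.

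Lists of energy metabolism differed in the share of genes that passed the test. Of the glycolysis list given next 6.45% rose and 12.9% fell, beside 7.68% raised and 8.34% lowered of all genes. Of the nuclear genes of oxidative phosphorylation 2.78% fell. Of 31 glycolysis genes 2 rose and 4 fell (1 to 2 up, 1 to 4 down). LDHA, which makes lactate, was at 747 and 709 TPM on DLL4, against 1087 and 1099.6 TPM on IgG, and ALDOA (-0.34 ± 0.08) and ENO1 (-0.27 ± 0.06) fell by less, while the glucose transporter SLC2A3 rose by 0.63 ± 0.12. PFKFB3, an activator of glycolysis in endothelium, had a change of -0.09 ± 0.14, and SLC2A1 one of 0.06 ± 0.12. Of 72 nuclear genes of oxidative phosphorylation none rose and 2 fell (NDUFB9 at -0.30 ± 0.07 and ATP5MC1 at -0.28 ± 0.08). None of the 13 mitochondrial genes passed. In the TCA cycle 2 of 25 tested rose and none fell. Medians of these 3 lists lay between -0.01 and 0.07, and that of the glycolysis list was -0.09. The calls of ALDOA (IgG 3, DLL4 2 and DLL4 3, p 0.012 to 0.14), ENO1 (IgG 3, DLL4 2 and DLL4 3, p 0.0077 to 0.088), NDUFB9 (IgG 2, IgG 3 and DLL4 2, p 0.012 to 0.12) and ATP5MC1 (any, p 0.025 to 0.18) were lost without 1 of the libraries named.

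Lipid genes changed in both directions. LIPG, endothelial lipase, was at 535 and 489 TPM on DLL4, against 264 and 281 TPM on IgG. STARD4, a cholesterol carrier, was at 60.9 and 56.9 TPM on DLL4, against 20.7 and 21.4 TPM on IgG. In both genes the libraries of the coatings did not overlap. Of 32 cholesterol synthesis and uptake genes 6 rose and 1 fell (1 to 4 up, 0 to 1 down), among them IDI1 (0.49 ± 0.10) and MSMO1 (0.49 ± 0.12), and 4 of 23 fatty acid synthesis genes rose (0 to 2 up), with FASN at 0.40 ± 0.10. Of 49 genes of fatty acid oxidation and lipid droplets 7 rose and 7 fell (4 to 5 up, 2 to 4 down), of 34 sphingolipid and phospholipid enzymes 4 rose and 4 fell (3 up, 3 down), and of 12 eicosanoid enzymes 1 rose and 1 fell. These are 14.3%, 11.8% and 8.33% of each list in each direction, beside 7.68% raised and 8.34% lowered of all genes. The eicosanoid shares are thus close to those of all genes. ACSL3, which activates fatty acids, rose by 0.66 ± 0.08. ABHD5, an activator of fat breakdown (-0.74 ± 0.13), PPARGC1B, a coactivator of oxidative genes (-0.90 ± 0.19), and MGLL, monoglyceride lipase (-0.84 ± 0.14), fell. PLPP3, which degrades lysophosphatidic acid, rose to 61.05 and 53.4 TPM on DLL4, against 25.4 and 25.04 TPM on IgG, and PLD1, a phospholipase, rose by 1.19 ± 0.14. The calls of IDI1 (IgG 3 and DLL4 2, p 0.0052 to 0.08), MSMO1 (IgG 3, DLL4 2 and DLL4 3, p 0.012 to 0.16), FASN (IgG 2, DLL4 2 and DLL4 3, p 0.013 to 0.14) and PPARGC1B (IgG 2, IgG 3 and DLL4 3, p 0.0073 to 0.081) were lost without 1 of the libraries named.

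Metal, redox and lysosome genes changed at a few members. MT2A, a metallothionein that binds zinc and copper, was at 678 and 673 TPM on DLL4, against 3354 and 3481 TPM on IgG. MT1X was at 16.8 and 19.9 TPM on DLL4, against 61.7 and 59.5 TPM on IgG. Metallothionein genes share sequence, so reads could be split between them. SLC30A1, the zinc exporter induced by the same metal sensor, rose by 0.68 ± 0.17. Of 44 redox genes 5 rose and 4 fell (2 to 6 up, 2 to 4 down), with GSTO1 at 496 and 476 TPM on DLL4, against 274 and 267 TPM on IgG. HMOX1 (-0.20 ± 0.17) and NQO1 (-0.13 ± 0.06) did not pass. The redox shares were 11.4% raised and 9.09% lowered, not far from those of all genes. Of the lysosome list given next 18.2% rose and 3.64% fell. Of the list for unfolded proteins and ATF4, also given next, 20.0% rose and 25.0% fell. Of 55 lysosome and autophagy genes 10 rose and 2 fell (4 to 7 up, 0 down), and besides SLC46A3 and ACP5 they were smaller, such as CTSC, cathepsin C (0.88 ± 0.10), and PSAP (0.40 ± 0.07). Of 40 members of the list for unfolded proteins and ATF4, 8 rose and 10 fell (2 to 7 up, 5 to 8 down). The ATF4 targets ASNS (-0.56 ± 0.12), CHAC1 (-1.01 ± 0.16) and STC2 were among those that fell, and SLC7A11, also an ATF4 target, rose, as did the chaperone genes HSPA5 (0.32 ± 0.07) and HYOU1 (0.48 ± 0.09). Of 78 cytosolic ribosomal protein genes none rose and 3 fell (0 down). The calls of SLC30A1 (any, p 0.013 to 0.12), PSAP (DLL4 2, p 0.003 to 0.051), ASNS (IgG 2 and DLL4 3, p 0.0059 to 0.09), HSPA5 (IgG 3 and DLL4 2, p 0.0078 to 0.12), HYOU1 (DLL4 2, p 0.0035 to 0.055) and SLC7A11 (IgG 3 and DLL4 2, p 0.0096 to 0.17) were lost without 1 of the libraries named.

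The cytoskeleton list held some of the most abundant transcripts. VIM, vimentin, the intermediate filament of endothelium, was at 7486 and 6992 TPM on DLL4, against 5463 and 5579 TPM on IgG. TAGLN2, an actin-binding transgelin relative, rose by 0.47 ± 0.06. Both were higher in each DLL4 library than in either IgG library. PDLIM3, an actin-associated LIM protein, was at 232 and 226 TPM on DLL4, against 85.5 and 80.5 TPM on IgG. TMOD1, which caps actin filaments, was at 10.04 and 9.29 TPM on DLL4, against 2.67 and 2.67 TPM on IgG. CAV1, the main protein of caveolae, rose by 0.64 ± 0.15, and CNN3, a calponin, by 0.64 ± 0.07. TUBB4B, a tubulin, fell (-0.48 ± 0.07). Over the list 16 of 68 tested rose and 6 fell (8 to 11 up, 2 to 5 down). Of 18 antigen presentation genes 4 rose and 1 fell (1 to 2 up, 1 down), with B2M, the light chain of class I molecules (0.29 ± 0.09), and the checkpoint ligand gene CD276 (0.63 ± 0.08) higher and CD274 lower. The calls of CAV1 (IgG 3 and DLL4 2, p 0.0022 to 0.1) and B2M (IgG 3, DLL4 2 and DLL4 3, p 0.025 to 0.3) were lost without 1 of the libraries named.

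Of 28 arterial genes 19 rose and 2 fell (10 to 16 up, 1 to 2 down), with a median of 0.94, but the list was drawn up with these results known. BMX, a kinase of arterial endothelium at most 4.37 TPM (-0.66 ± 0.12), and LTBP4 were the members that fell. The shares of all genes were 7.68% raised and 8.34% lowered. Of 22 genes of leading sprout cells 11 rose and 5 fell (9 to 10 up, 3 to 4 down): DLL4, NID2, COL4A1, KDR and ANGPT2 were among those that rose, and ESM1, ADM, APLN and PDGFB among those that fell. Of 13 venous genes 4 rose and 1 fell (2 up, 0 to 1 down), with ADGRG6, EPHB4 and NRP2 up and NT5E down. Of 6 lymphatic genes 3 rose and none fell (1 to 2 up), LYVE1 and NRP2 among them. Of 23 genes of flow response and barrier 7 rose and 1 fell (3 to 5 up, 1 down), and CLDN5 was the one that fell. These lists share members with those above, so they add no separate evidence. The calls of LTBP4 (IgG 3, DLL4 2 and DLL4 3, p 0.018 to 0.21), PDGFB (IgG 3, DLL4 2 and DLL4 3, p 0.0068 to 0.093), NRP2 (any, p 0.03 to 0.29) and NT5E (IgG 2, IgG 3 and DLL4 3, p 0.01 to 0.29) were lost without 1 of the libraries named.

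Ion channels rose in 13 of 70 genes and fell in 2 (2 to 6 up, 1 down). CACNA2D4, a calcium channel subunit, was at 43.6 and 39.2 TPM on DLL4, against 18.98 and 16.7 TPM on IgG. KCNJ2, the inward rectifier potassium channel of endothelium, was at 3.52 and 2.74 TPM on DLL4, against 0.753 and 1.02 TPM on IgG. ANO6, a scramblase and channel, rose by 0.92 ± 0.17, and the calcium release channel ITPR2 by 0.97 ± 0.20. Solute carriers rose in 20 of 191 genes and fell in 19 (9 to 14 up, 5 to 13 down), not far from the shares of all genes, and besides those above SLC45A4, an arterial marker, was at 31.9 and 30.2 TPM on DLL4, against 6.86 and 7.14 TPM on IgG. ABCC3, an organic anion pump, fell (-1.25 ± 0.14). The calls of CACNA2D4 (any, p 0.0059 to 0.14) and ITPR2 (IgG 3 and DLL4 2, p 0.0046 to 0.078) were lost without 1 of the libraries named.

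The 60 genes with the largest changes were compared with the responses of the edited lines. Each edited gene is represented by 1 line, so an effect of the edit and a difference between lines cannot be told apart. The NT response and that of another line share no library. Over all genes the difference between the NT and NKO responses passed in 118 (0.887%) and that between NT and TKO in 70 (0.526%). With 1 NT library left out these counts were 30 to 47 and 13 to 28. Values of the NT line picked these 60 genes, so larger responses there are favoured and the counts are a description. Among the 30 raised genes the difference NT minus NKO passed in 23, and NT minus TKO in 12. Among the 30 lowered genes it passed in 13 and in 4, and all of these differences had the larger response in NT. Of the 36 differences from NKO cells 17 passed again in all 4 fits without 1 NT library and 12 in none of them. Of the 16 differences from TKO cells 5 passed in all 4 and 8 in none. The median change of the 30 raised genes was 2.62 in NT, 0.92 in NKO and 1.45 in TKO cells, and that of the 30 lowered genes was -1.86 in NT, -0.83 in NKO and -1.13 in TKO cells. The NT response of SLC46A3 exceeded that of NKO cells by 2.20 ± 0.17 and that of TKO cells by 1.28 ± 0.17. Its difference from TKO cells passed in 1 of the 4 fits without 1 NT library (p 0.0046 to 0.079 over the settings tried). MFNG, which fell in NT cells, differed by -1.66 ± 0.13 from NKO and by -1.99 ± 0.13 from TKO cells. For EFNB2 the differences were 3.17 ± 0.27 from NKO (limma adjusted p = 0.0004) and 0.94 ± 0.27 from TKO cells (adjusted p = 0.14). IL1B, F2RL1, GDF3 and ANGPTL4 passed in neither comparison, with differences from NKO cells of 0.55 ± 0.32, 0.74 ± 0.36, 0.91 ± 0.26 and 0.79 ± 0.21.

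**Figure D5:**
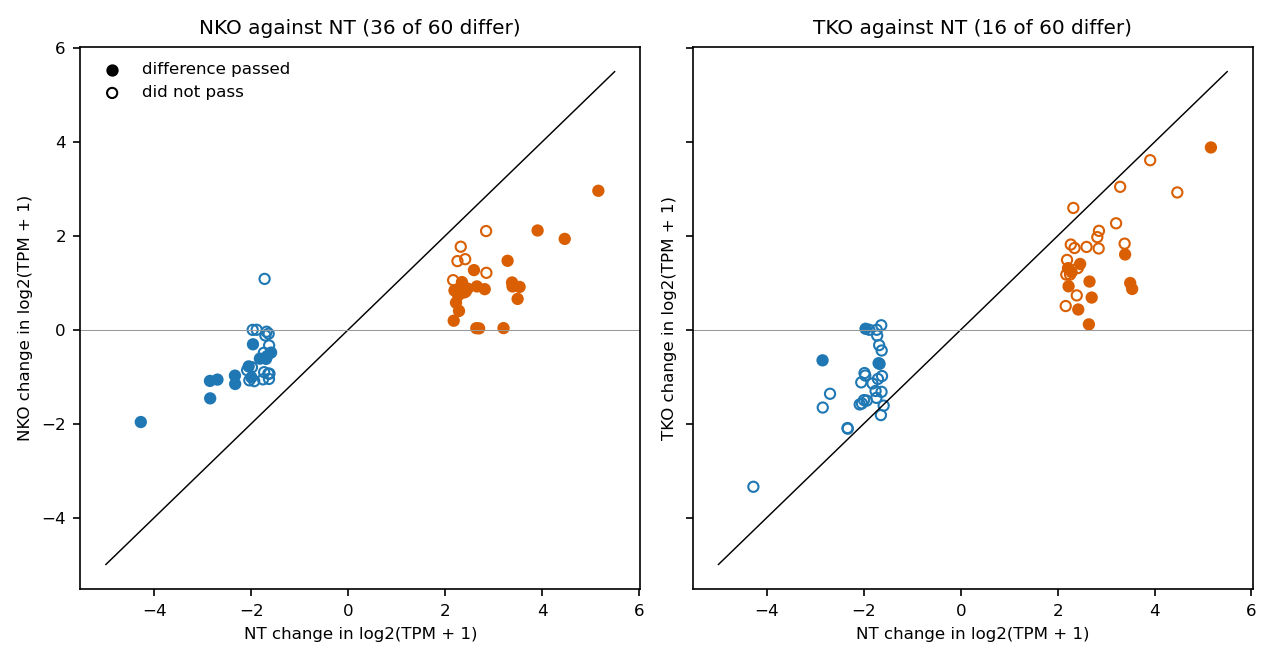
DLL4 response, as change in log2(TPM + 1) of DLL4 minus IgG, of the 30 raised and 30 lowered genes with the largest changes in NT cells (x axis), against the same change in NKO cells (left panel, y axis) and in TKO cells (right panel, y axis). Filled points passed the limma test of the difference between the lines (36 for NKO, 16 for TKO), open points did not, and the line marks equal responses. In every filled point the NT change is the larger one.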

How the data were processed

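RNA of TeloHAEC cells in 12 libraries, 2 for each of 3 lines on 2 coatings, was measured by RNA-seq. The authors deposited 1 table of TPM values per gene symbol (35587 symbols). The submitters' processing notes name kallisto and the build hg38, with no version. TPM carry no read depth, so library depth is unknown and counting error cannot be given.

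Values were taken as log2(TPM + 1). Genes with at least 1 TPM in at least 2 of the 12 libraries (13299) were fitted with limma 3.58.1 (R 4.3.3), with 1 mean per line and coating over all 6 groups, a prior variance that follows expression (moderated degrees of freedom 10.8) and Benjamini-Hochberg adjustment over all 13299 genes at 0.05. The fit was tested on simulated data. With 2 libraries against 2 an exact permutation test cannot go below p = 0.333, so calls rest on the variance shared across genes. Fold changes on this scale understate those of low genes.

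Groups and column numbers come from the labels and the table's header. The NT columns are numbered 2 and 3 where the labels number the libraries 1 and 2. Members and lists were chosen with earlier results of these data known. Named were the 30 raised and 30 lowered genes of largest change with at least 5 TPM in either group's mean and no overlap, up to 8 called genes of each list at that level by smallest p, the Notch and HES/HEY genes, and members of a list that did not pass. Outside that rule, and chosen after their values were seen, are ACVR2A, ADORA2A, AGRN, ALKBH2, BCL2A1, BMX, EGR1, GJA5, HMGA1, HOXB5, HSPA5, HTR1D, KCNJ2, LGALS3BP, MGP, NPPC, PDE2A, PDE3A, PDE4B, PLAUR, PLOD2, PTGER4, PTH1R, SEMA3G, SOX17, TGFB2, TGM2, ZEB2 and the entry AC114801.3. Alternatives were keeping all genes, keeping those with at least 5 TPM on average, a smaller pseudocount (0.1), rescaling by median ratios, leaving out KPNA2P2, a replicate block, a fit of the 4 NT libraries alone, leaving out each NT library and a longer promoter word.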

Additional observations from a re-analysis of the deposited data

Results flagged for a closer look

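Of the 60 genes with the largest changes in NT cells, 36 had a DLL4 response that differed between NT and NKO cells, and 16 of them also differed between NT and TKO cells, by the limma test of the difference itself. Values are differences of the DLL4 minus IgG change in log2(TPM + 1), NT minus the other line. Because the genes were chosen on the NT libraries, larger responses in NT are favoured by the choice.
Among raised genes, the NT response exceeded that of NKO cells for SLC46A3 (2.20), TFF1 (2.53), HES4 (1.80), IL33 (2.63), ACP5 (2.84), RND1 (2.47), MASP1 (2.38), CASP17P (1.82), EFNB2 (3.17), DLL4 (1.95), AC009093.8 (2.67), ARHGEF17 (1.73), GJA4 (2.61), PLSCR4 (1.33), ENC1 (1.59), CCDC102B (1.61), THBS1 (1.60), SERPINB9 (1.33), SLC1A4 (1.89), LURAP1L (1.54), HEY2 (1.65), HTRA3 (1.37) and ATP6V0D2 (1.99). Among lowered genes, the difference NT minus NKO was below 0 for FST (-2.31), CA2 (-1.76), TMEM158 (-1.39), PTPN7 (-1.64), MT2A (-1.36), SH2D2A (-1.18), CATSPER1 (-1.27), ESM1 (-0.98), MFNG (-1.66), MYEOV (-1.21), TBC1D2 (-1.08), MT1X (-1.11) and CSF3 (-1.10). The largest of these differences was that of EFNB2, the arterial ephrin, and among the lowered genes that of FST, follistatin.
Among raised genes the NT response exceeded that of TKO cells for SLC46A3 (1.28), IL33 (2.67), ACP5 (2.50), RND1 (1.79), AC009093.8 (2.02), ARHGEF17 (1.63), GJA4 (2.53), ENC1 (1.06), CCDC102B (1.99), SLC1A4 (1.06), HEY2 (1.30) and HTRA3 (0.90). Among lowered genes, NT minus TKO was below 0 for CA2 (-2.20), MFNG (-1.99), TBC1D2 (-0.98) and MT1X (-0.95). In the 16 genes that differed from both lines, the difference from TKO cells was the larger one for IL33, CCDC102B, CA2 and MFNG and that from NKO cells for the other 12. The difference between NKO and TKO cells was not tested here.
Without 1 NT library fewer of these differences passed. Those from NKO cells passed in all 4 such fits for SLC46A3, IL33, ACP5, RND1, CASP17P, EFNB2, DLL4, AC009093.8, ARHGEF17, ENC1, SERPINB9, SLC1A4, HEY2, HTRA3, FST, MT2A and MFNG, and in none of them for TFF1, MASP1, PLSCR4, CCDC102B, THBS1, LURAP1L, CA2, TMEM158, PTPN7, CATSPER1, ESM1 and CSF3. Those from TKO cells passed in all 4 fits for IL33, ACP5, ARHGEF17, HEY2 and MFNG, and in none for RND1, ENC1, CCDC102B, SLC1A4, HTRA3, CA2, TBC1D2 and MT1X. GJA4, at 0 on IgG, was tested only in the 2 fits that kept both DLL4 libraries. These fits cannot show how far its differences rest on 1 of those libraries. In other settings its limma adjusted p reached 0.082 against NKO cells and 0.11 against TKO cells. The adjusted p over the settings tried reached 0.21 for differences from NKO cells (ATP6V0D2) and 0.16 for those from TKO cells (MT1X). No difference changed sign.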

How the results depend on the processing

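The count of called genes in NT cells (2130) was 1586 without a filter on low values, 2511 after median-of-ratios rescaling, 1085 in a fit of the 4 NT libraries alone and 960 to 1213 when 1 NT library was left out; raised genes (1021) numbered 408 to 651 and lowered genes (1109) 403 to 639 in those 4 fits, and 586 and 499 in the NT libraries alone. None of the 2130 genes changed sign in a setting that tested it. Differences NT minus NKO (118) numbered 78 without a filter and 30 to 47 without 1 NT library. Differences NT minus TKO (70) were 108 among genes of at least 5 TPM on average and 13 to 28 without 1 NT library. Of 329 called genes named in the text, 230 kept their call in each setting that tested them and 93 lost it without at least 1 NT library. The calls of BMX, BNIP3, CDK4, IFNGR1 and PLAU were lost only in the fit of the 4 NT libraries alone. That of PPARG was lost only with the pseudocount of 0.1 (limma adjusted p = 0.085). The share of raised genes with the promoter word was 18.9% for TGGGAA and 5.05% for the longer GTGGGAA. The cause of these moves was not tested. The smaller fits also held fewer libraries. Same-numbered NT libraries did not deviate together (correlation -0.000292). With 2 libraries a coating this cannot show whether they were handled as pairs, and the labels do not say. With a replicate block 2064 genes were called in NT cells, and 79 (NKO) and 80 (TKO) in the differences between lines. That fit kept 1835 of the 2130 calls in NT cells. Limits: 2 libraries a group, 1 line per genotype and TPM without depth bound these calls, and a p that misses 0.05 does not show equal levels. The facing pair of TGNGAA was chosen after the data were seen.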

Other observations

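Hypoxia-inducible genes, read beside the increase of EPAS1, divided: of 28 tested 6 rose and 4 fell (2 to 4 up, 4 down). ANGPTL4 and SLC2A3 rose and ADM, LDHA and STC2 fell, as given above. EGLN1, an oxygen-sensing prolyl hydroxylase, rose by 0.70 ± 0.15. The mitophagy receptor genes BNIP3 and BNIP3L went opposite ways, with BNIP3 at 15.5 and 19.3 TPM on DLL4, against 27.03 and 28.4 TPM on IgG and BNIP3L at 25.3 and 26.9 TPM on DLL4, against 15.7 and 16.98 TPM on IgG. The calls of EGLN1 (IgG 3 and DLL4 2, p 0.0035 to 0.087) and BNIP3L (any, p 0.011 to 0.097) were lost without 1 of the libraries named.
Of 16 genes of the complement list 4 rose and none fell (3 up). They were the protease gene MASP1, the C1q relative C1QTNF5, CD46, a cofactor for cleavage of C3b (0.54 ± 0.09), and CD59, which blocks the membrane attack complex, at 1782 and 1736 TPM on DLL4, against 1456 and 1456 TPM on IgG. Of the heat shock genes given next 8.33% rose and 12.5% fell, beside 7.68% raised and 8.34% lowered of all genes. Of the pentose phosphate and NADPH list 18.8% rose and 18.8% fell. Among 18 WNT and hedgehog receptors 5 rose and none fell (3 to 4 up), and besides ROR1 and FZD4 they included ADGRA2, a coreceptor for WNT7 in brain endothelium (0.81 ± 0.15), and FZD2 (0.60 ± 0.17). Of 36 apoptosis regulators 3 rose and 3 fell (1 to 3 up, 2 down), beside 7.68% raised and 8.34% lowered of all genes: CFLAR, which blocks caspase 8, rose by 0.52 ± 0.09, TNFRSF10B, a TRAIL receptor, by 0.38 ± 0.10, and BIRC5, survivin, fell (-0.36 ± 0.09). Of 24 heat shock genes 2 rose and 3 fell (0 to 1 up, 0 to 1 down), with HSPA8 at 1426 and 1384 TPM on DLL4, against 1805 and 1704 TPM on IgG. Of 16 genes of the pentose phosphate pathway and NADPH supply 3 rose and 3 fell (0 to 3 up, 1 to 2 down), with RPIA lower (-0.52 ± 0.09) and IDH1 (0.39 ± 0.09) and IDH2 (0.38 ± 0.09) higher. The calls of CD59 (any, p 0.016 to 0.13), FZD2 (any, p 0.033 to 0.15), TNFRSF10B (IgG 2, IgG 3 and DLL4 2, p 0.0059 to 0.17), BIRC5 (any, p 0.017 to 0.16), HSPA8 (any, p 0.0094 to 0.18), IDH1 (IgG 3 and DLL4 2, p 0.0066 to 0.093) and IDH2 (IgG 2, DLL4 2 and DLL4 3, p 0.0095 to 0.094) were lost without 1 of the libraries named.
The entry AC114801.3 had the largest increase of any gene tested (6.04 ± 2.47) and did not pass, at 757 and 128 TPM on DLL4, against 21.6 and 0 TPM on IgG. The libraries of each coating were far apart from each other.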
